A study of Mus musculus with 8 samples.

Results

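The 8 genes described here encode receptors for dying cells and the secreted proteins that tie those receptors to their targets: Mertk, Axl, Tyro3, Gas6, Pros1, Mfge8, Itgav and Itgb5. They were taken by symbol, in all 8 libraries, and make up 8 of the 26062 gene IDs in the count table. RNA was sequenced from microglia, the resident macrophages of the brain, purified on magnetic beads against CD11b from the LGN (lateral geniculate nucleus), where retinal ganglion cell axons end in the thalamus. All mice were wild type C57BL/6J males aged 2 to 3 months, and the groups were uninjured mice (2 libraries), mice 1 day after crush of both optic nerves (3 libraries) and mice 3 days after it (3 libraries). Crush of the nerve severs retinal axons, so that their terminals in the LGN degenerate. The labels name no transgene or drug, and whether each library holds 1 animal or a pool is not stated, so p-values measure the spread between libraries, which may be partly technical.

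A dying cell turns the lipid phosphatidylserine to the outside of its membrane, and phagocytes read that lipid as a signal to engulf. The TAM receptors (TYRO3, AXL and MERTK) are receptor tyrosine kinases that do not bind the lipid themselves. GAS6 and protein S, the product of Pros1, bridge the gap, with a vitamin K-dependent domain on the lipid and the other end on the receptor: GAS6 binds all TAM receptors, and protein S binds TYRO3 and MERTK. MFGE8 is a second kind of bridge, which holds phosphatidylserine at one end and integrins at the other through an RGD motif. The integrin αvβ5, made of the products of Itgav and Itgb5, is one of its receptors and works with MERTK in the daily uptake of photoreceptor tips by the retinal pigment epithelium. In microglia these proteins are studied in the clearance of dying cells, myelin and synapses.

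Totals ran from 12700098 to 17994861 counts per library, and 18035 to 22395 genes had a count. The 8 microglia markers summed to 7133 to 12663 CPM (counts scaled to a common library total, with TMM factors) with no marker at 0 in any library. Other cells were also represented. Endothelial markers summed to 1269 to 1463 CPM in uninjured libraries, 558 to 664 CPM at 1 day and 1017 to 1150 CPM at 3 days. Choroid plexus and ependyma markers ran from 519 to 5474 CPM in uninjured libraries, from 0.467 to 56.6 CPM at 1 day, where 2 to 6 of the 7 markers were at 0, and from 617 to 3550 CPM at 3 days. The share of mitochondrially encoded counts was 13.6%, 21.9% and 13.9% in replicates 1 to 3 at 1 day, 22.8% to 30.3% at 3 days and 21.3% to 22.5% without injury. In such bulk samples, fewer cells of a type and less RNA per cell cannot be told apart.

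Mertk and Itgav are the members whose level differed between groups in the test across all genes, and Axl is the other TAM receptor with enough counts to be compared with Mertk. The 250 bases before the RefSeq start of these 3 genes are shown here, so that the sequence next to each gene can be read beside its levels. They come from RefSeq on GRCm38.p6, a later build than the mm9 named for the counts, and each is written 5′ to 3′ on the strand of the gene. Bases shortly after the start were found in 2 transcripts of Itgav, 1 of Axl and 0 of Mertk in GENCODE M21, a second annotation. The Mertk positions thus refer to a start that GENCODE M21 transcripts did not match. The Mertk window is chr2:128698665-128698914 on the plus strand, the Itgav window is chr2:83724147-83724396 on the plus strand and the Axl window is chr7:25788734-25788983 on the minus strand. Capitals mark matches, on either strand, to any of 4 short motifs: GGGCGG (the GC box of Sp and KLF factors), GAGGAAG (a core of the myeloid factor PU.1), TGANTCA (AP-1) and AGGTCA (a nuclear receptor half-site).
Mertk: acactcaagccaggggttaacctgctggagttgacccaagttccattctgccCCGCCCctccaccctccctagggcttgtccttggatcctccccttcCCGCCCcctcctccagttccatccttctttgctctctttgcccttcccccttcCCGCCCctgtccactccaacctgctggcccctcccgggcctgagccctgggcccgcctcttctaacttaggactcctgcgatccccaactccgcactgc
Itgav: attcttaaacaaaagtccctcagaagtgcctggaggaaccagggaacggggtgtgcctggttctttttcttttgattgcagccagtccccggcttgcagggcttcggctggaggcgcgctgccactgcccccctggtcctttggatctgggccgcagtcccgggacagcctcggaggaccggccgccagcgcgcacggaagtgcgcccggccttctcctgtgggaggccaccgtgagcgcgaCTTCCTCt
Axl: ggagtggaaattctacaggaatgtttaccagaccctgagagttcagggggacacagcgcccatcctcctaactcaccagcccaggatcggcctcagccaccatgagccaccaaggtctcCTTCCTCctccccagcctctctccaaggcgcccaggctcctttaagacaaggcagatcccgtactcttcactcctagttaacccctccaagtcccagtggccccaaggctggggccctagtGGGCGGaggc
The Mertk window held 3 GC boxes, all on the reverse strand, with first bases 198, 152 and 99 before the start, and no match to the other motifs. The Itgav window held no GC box and 1 PU.1 core, read on the reverse strand 8 bases before the start. The Axl window held 1 GC box 10 bases before the start and 1 PU.1 core 131 bases before it. No matches overlapped in these 3 windows, and none of the 3 held an AP-1 or half-site match. All 8 members had a RefSeq window, and 7 of the 8, all but Itgav, held a GC box, which 32.7% of the 32851 windows of all genes held. The PU.1 core was in 10.6% of all windows, the AP-1 letters in 6.7% and the half-site in 14.0%. GC content was 63.6% for Mertk, 64.4% for Itgav and 60.0% for Axl, against a median of 52.4% over all windows. A match is a string of letters, not a measured binding site.

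Mertk, the receptor kinase through which macrophages engulf apoptotic cells, was the most abundant TAM receptor in these cells and had the smallest adjusted p of the 8 genes. Its level was 537 and 558 CPM in the uninjured libraries. It was 685, 745 and 816 CPM in replicates 1 to 3 at 1 day. It was 438, 339 and 367 CPM at 3 days. All libraries at 1 day lay above the uninjured pair and all libraries at 3 days below it, with no overlap between any of the groups. The mean was 749 ± 65.9 CPM at 1 day (SD, n = 3), and it fell to 381 ± 51.4 CPM (SD, n = 3) at 3 days. In edgeR's quasi-likelihood test over 17390 genes this was a log2 fold change of -0.97 (SE 0.14, 95% interval -1.27 to -0.68), a 1.96-fold fall with a Benjamini-Hochberg adjusted p of 0.000542.

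Against the uninjured mean of 548 ± 14.3 CPM (SD, n = 2), Mertk differed at neither time by the same test. At 1 day the log2 fold change was 0.45 (SE 0.15, 95% interval 0.12 to 0.78, adjusted p = 0.172). At 3 days it was -0.52 (SE 0.15, 95% interval -0.85 to -0.20, adjusted p = 0.0794). The unadjusted p-values were 0.0109 and 0.00375, so Mertk missed the threshold after correction and not before it. The call at 3 days depended on these choices: it passed without replicate 2 of 1 day (adjusted p = 0.0386) and in DESeq2 (adjusted p = 0.0189) and limma-voom (adjusted p = 0.0343), and with no filter on low counts (adjusted p = 0.0367) or one at 5 CPM (adjusted p = 0.0438). The fall between 1 and 3 days, by contrast, passed with any 1 library left out (log2 fold change -1.09 to -0.89) and was -0.92 when mitochondrially encoded genes were left out of the counts.

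Axl, the TAM receptor that in many macrophages rises with inflammation, passed the test in no comparison. Its level was 80.2 and 77.7 CPM in uninjured libraries. It was 66.5, 81.3 and 81.7 CPM at 1 day. It was 107, 91.7 and 79.9 CPM at 3 days. The groups overlapped throughout, and the highest library was replicate 1 of 3 days. The log2 fold change was -0.05 at 1 day (95% interval -0.47 to 0.38, adjusted p = 0.961), 0.24 at 3 days (95% interval -0.19 to 0.66, adjusted p = 0.657) and 0.28 between the times (95% interval -0.10 to 0.66, adjusted p = 0.349). These intervals leave room for a change of up to 1.58-fold in Axl between uninjured and 3 days.

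Tyro3, the TAM receptor best known from neurons, was close to the limit of detection. It had 22 and 30 counts in uninjured libraries, 0, 13 and 0 counts at 1 day and 11, 3 and 23 counts at 3 days. A library with 0 counts allows up to 3 counts. That is 0.234 CPM for replicate 1 and 0.185 CPM for replicate 3 of 1 day, against 1.18 and 1.55 CPM without injury. The uninjured libraries lay above all those of 1 day, yet the log2 fold change of -1.97 had a standard error of 1.65 and an adjusted p of 0.667. Across the alternative fits that estimate moved from -7.44 to -1.37, and that between the times from 0.47 to 6.84, with the largest sizes in both cases without replicate 2 of 1 day, which leaves 0 counts at 1 day. None of these fits called Tyro3. A change in Tyro3 was not detectable at this depth.

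**Figure D1:**
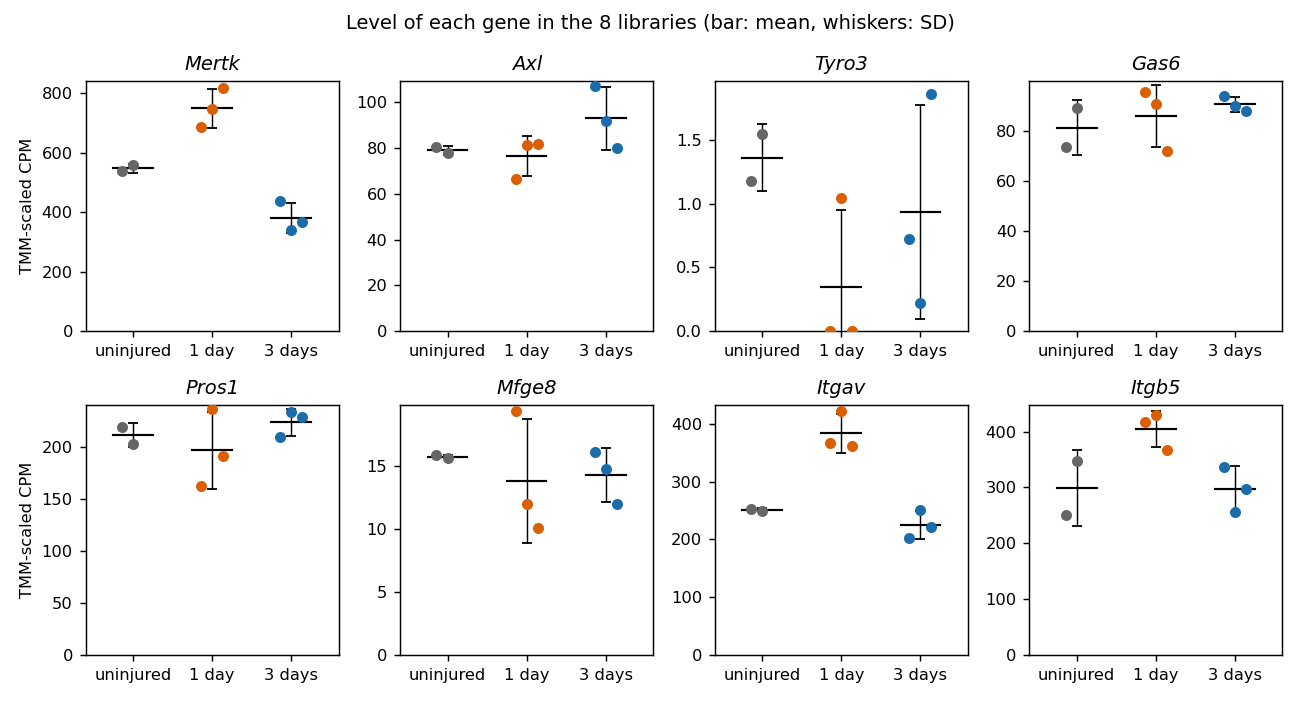
Level of each of the 8 genes in TMM-scaled CPM (y axis, from 0, a separate scale for each gene) in uninjured libraries (n = 2) and at 1 day (n = 3) and 3 days (n = 3) after crush; points are libraries, bars means and whiskers SD. Mertk, Itgav and Itgb5 are highest at 1 day, with all 3 libraries of 1 day above every other library, while Axl, Gas6, Pros1 and Mfge8 overlap between the groups.

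Per kilobase of exon, a scale that allows for gene length, Mertk stood far above the other TAM receptors. The length is that of all annotated exons of a gene together. How evenly the amplified RNA covered the transcripts was not tested. Uninjured means were 126 CPM per kb for Mertk, 15.7 for Axl and 0.219 for Tyro3. Mertk thus made up 88.8% ± 0.458 (SD, n = 2) of the summed TAM receptor level without injury, 91.9% ± 0.496 (SD, n = 3) at 1 day and 82.5% ± 1.45 (SD, n = 3) at 3 days. Mertk remained the leading TAM receptor in each library, from 81.1% to 92.3%.

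The ratio of Mertk to Axl within a library does not depend on how libraries are scaled to each other. In CPM it was 6.70 and 7.18 in uninjured libraries. It was 10.3, 9.17 and 9.99 at 1 day. It was 4.09, 3.69 and 4.59 at 3 days. The 3 groups did not overlap: the mean was 6.94 ± 0.340 (SD, n = 2), 9.82 ± 0.582 (SD, n = 3) and 4.12 ± 0.450 (SD, n = 3). Each of the 3 comparisons had a two-sided exact permutation p of 0.1, the smallest that 2 against 3 or 3 against 3 libraries can give, and an adjusted p of 0.236 over the 33 tests of ratios.

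The bridging proteins of the TAM receptors passed the test in no comparison. Gas6, the ligand of all TAM receptors, had a level of 73.6 and 89.0 CPM without injury. Its level was 95.6, 90.5 and 71.8 CPM in replicates 1 to 3 of 1 day. In those of 3 days it was 93.9, 90.1 and 87.9 CPM. Its groups overlapped, and the log2 fold changes of 0.08, 0.16 and 0.08 (1 day and 3 days against uninjured, and 3 days against 1 day) had adjusted p-values of 0.919, 0.796 and 0.839. Of its 2548 exonic bases, 34 (1.33%) also belong to Tmem255b on the opposite strand, and the strand setting of the counting is not given in the sources used here.

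Pros1, which encodes the anticoagulant cofactor and TAM ligand protein S, was at 220 and 203 CPM without injury. It was at 163, 236 and 192 CPM at 1 day. It was at 209, 234 and 228 CPM at 3 days. The widest spread was within 1 day, where replicate 1 was the lowest of all 8 libraries and replicate 2 the highest. Its log2 fold changes of -0.10, 0.08 and 0.19 had adjusted p-values of 0.867, 0.898 and 0.496, and the 95% interval between the times was -0.15 to 0.52.

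Per kilobase, Pros1 was the more abundant of these ligands in each library, with a Pros1 to Gas6 ratio from 1.06 to 1.86. Mertk divided by the sum of Gas6 and Pros1, all in CPM per kb, was 1.5003 and 1.5197 in uninjured libraries. It was 2.04, 1.84 and 2.51 at 1 day. It was 1.15, 0.843 and 0.936 at 3 days. The groups did not overlap. The exact permutation p was 0.2 for 1 day against uninjured (adjusted p = 0.412 over the 33 tests of ratios) and 0.1, the smallest possible, for 3 days against uninjured and against 1 day (adjusted p = 0.236 for each). These are RNA levels in one cell preparation, and ligand made by other cells of the LGN was not measured.

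Mfge8, the bridge to αv integrins, was low in these cells. It was at 15.8 and 15.6 CPM without injury. It was at 19.3, 11.96 and 10.04 CPM at 1 day. It was at 16.1, 14.7 and 11.9 CPM at 3 days. The groups overlapped, with the highest and the lowest library both at 1 day. Its log2 fold changes of -0.19, -0.14 and 0.05 had adjusted p-values of 0.895, 0.924 and 0.950, and with 148 to 303 counts per library the interval between the times ran from -0.70 to 0.80. Per kilobase, Mfge8 at 3.35 CPM without injury was below Gas6 (31.9) and Pros1 (51.7).

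**Figure D2:**
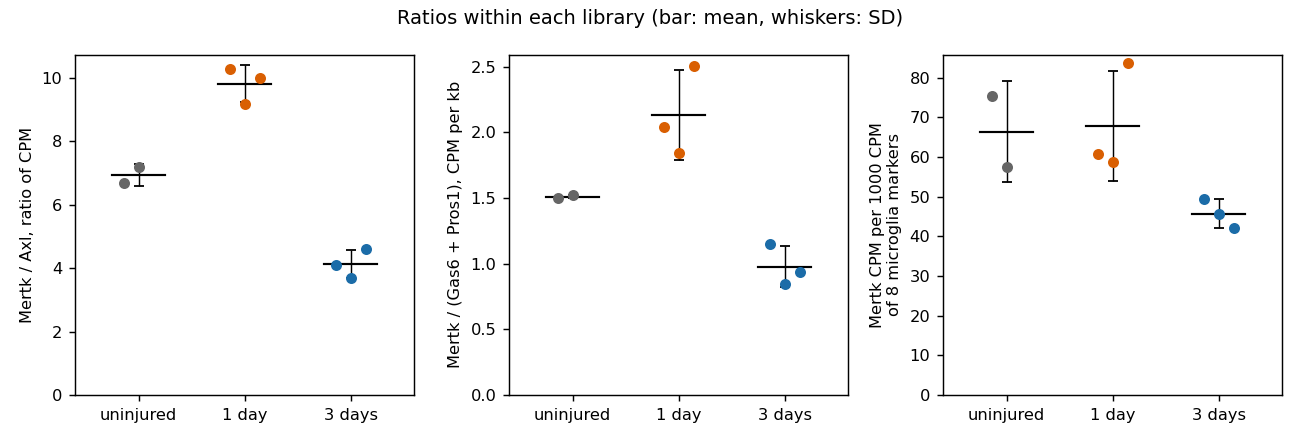
Ratios within each library for uninjured (n = 2), 1 day (n = 3) and 3 days (n = 3): Mertk to Axl in CPM (left), Mertk to the sum of Gas6 and Pros1 in CPM per kb (middle) and Mertk CPM per 1000 CPM of the 8 microglia markers (right). Points are libraries, bars means and whiskers SD, and axes start at 0; the first 2 ratios separate all groups, while the third separates only 3 days from the rest.

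Itgav, the αv subunit that pairs with several β subunits, was, like Mertk, highest at 1 day. Its level was 254 and 250 CPM in uninjured libraries. It was 367, 422 and 362 CPM at 1 day. It was 203, 251 and 221 CPM at 3 days. All libraries at 1 day were above all others, while 3 days overlapped the uninjured pair through its replicate 2. The mean was 384 ± 33.4 CPM at 1 day (SD, n = 3) and fell to 225 ± 24.5 CPM (SD, n = 3) at 3 days. The log2 fold change was -0.77 (SE 0.14, 95% interval -1.07 to -0.47, adjusted p = 0.00286), which is a 1.71-fold fall. It passed with any 1 library left out (-0.86 to -0.70).

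Against the uninjured mean of 252 ± 2.77 CPM (SD, n = 2), Itgav was 0.61 higher on the log2 scale at 1 day (SE 0.16, 95% interval 0.27 to 0.95, adjusted p = 0.0654), which missed the threshold in edgeR and passed in DESeq2 (adjusted p = 0.0259) and limma-voom (adjusted p = 0.0402). At 3 days the difference from uninjured was -0.16 (95% interval -0.49 to 0.17, adjusted p = 0.706). Of the 10744 exonic bases of Itgav, 634 (5.90%) are shared with Gm13684 on the opposite strand. Gm13684 is also counted, and without a stated strand setting it is not known how reads from the shared bases were assigned or set aside.

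Itgb5, the β5 subunit that pairs with αv alone, had 251 and 347 CPM in uninjured libraries. It had 418, 430 and 368 CPM at 1 day. It had 337, 256 and 298 CPM at 3 days. As with Itgav, each library of 1 day was above every other library. The differences did not pass the test: the log2 fold change was 0.44 at 1 day (95% interval 0.06 to 0.82, adjusted p = 0.259), -0.01 at 3 days (adjusted p = 0.994) and -0.45 between the times (95% interval -0.78 to -0.11, adjusted p = 0.0868). Per kilobase Itgb5 exceeded Itgav in each library, by 2.99 to 5.04 times, and the groups overlapped in this ratio. In CPM these genes were closer, with uninjured means of 299 for Itgb5 and 252 for Itgav, so the size of the ratio rests on the exonic lengths.

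Without injury, the order of levels per kilobase was Mertk (126 CPM per kb), Itgb5 (84.1), Pros1 (51.7), Gas6 (31.9), Itgav (23.4), Axl (15.7), Mfge8 (3.35) and Tyro3 (0.219). No neighbours in that order overlapped between the 2 uninjured libraries of each. The order rests on the exonic lengths: in CPM the uninjured mean of Itgav (252) was above those of Pros1 (211) and Gas6 (81.3). At 1 day Itgav (35.7) and Gas6 (33.7) exchanged places, but their libraries overlapped, so these neighbours did not differ beyond their spread. At 3 days Mertk (87.9 ± 11.9, SD, n = 3) and Itgb5 (83.6 ± 11.5, SD, n = 3) overlapped at the top of the order, and Itgav (20.9 ± 2.28) and Axl (18.5 ± 2.73) overlapped lower in it. The summed level of the 8 genes ran from 1432 to 1541 CPM without injury, from 1814 to 2018 CPM at 1 day and from 1276 to 1406 CPM at 3 days.

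Counted together, 0 of the 8 genes were called at 1 day against uninjured, where 1.77% of all tested genes were called, and 0 at 3 days, where 3.47% were. Unadjusted p-values under 0.05 were found for 3 members (Mertk, Itgav and Itgb5) at 1 day and 1 (Mertk) at 3 days. The share of all tested genes under that unadjusted threshold was not counted. Counts at an unadjusted p, here and in the lists below, therefore cannot be set beside the shares called. DESeq2 and limma-voom each called 1 member per comparison (Itgav at 1 day and Mertk at 3 days). DESeq2 called 4.92% and 9.90% of the genes it gave an adjusted p at these times, and limma-voom called 2.02% and 4.63% of all tested genes. Between 3 days and 1 day, 2 of the 8 were called, both lower, where 11.0% of all tested genes were called and 5.75% were called lower. All 8 members passed the filter on low counts. Libraries did not overlap for 4 members at 1 day against uninjured (3 higher and Tyro3 lower; 29.3% of all tested genes), for 1 at 3 days (Mertk; 39.4%) and for 3 between the times (Mertk, Itgav and Itgb5, all lower; 29.8%). The median log2 fold change of the members was 0.02, -0.07 and 0.06 in these comparisons, and that of all tested genes 0.06, -0.00 and 0.02. Both comparisons with uninjured mice share the same 2 control libraries.

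**Figure D3:**
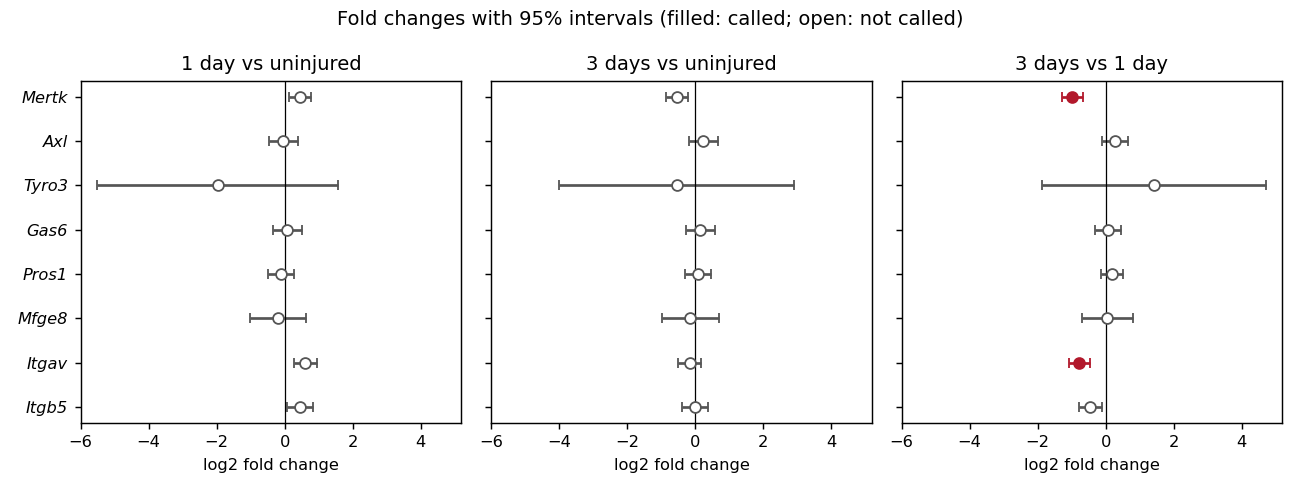
log2 fold change (x axis) of each gene in the 3 comparisons with its 95% interval from edgeR's quasi-likelihood fit; filled points passed at an adjusted p under 0.05. Mertk (-0.97) and Itgav (-0.77) at 3 days against 1 day are the filled points, and the interval of Tyro3 is the widest in each panel.

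The levels were next set beside the cell markers that moved between the same groups. The microglia marker sum was 7133 to 9713 CPM without injury, 9751 to 12663 CPM at 1 day and 7437 to 8851 CPM at 3 days. By group, Mertk, Itgav and that sum were all highest at 1 day. By library, Itgav was highest where the sum was, in replicate 2 of 1 day (422 CPM). Mertk was highest in replicate 3 of 1 day (816 CPM), which had the lowest sum of that group. Per 1000 CPM of microglia markers, Mertk was at 75.3 and 57.4 without injury, at 60.8, 58.9 and 83.7 at 1 day and at 49.5, 45.5 and 42.1 at 3 days. On this scale 1 day overlapped the uninjured pair, and 3 days still lay below all other libraries (exact permutation p = 0.1 against 1 day, the smallest possible, adjusted p = 0.236 over the 33 tests of ratios). Itgav on the same scale was at 35.6 and 25.7, at 32.5, 33.3 and 37.1 and at 22.9, 33.8 and 25.4, and its groups overlapped (exact permutation p = 0.3 for 3 days against 1 day).

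Between 1 and 3 days 3 of the 8 microglia markers fell, namely Tmem119 (-0.87), P2ry12 (-0.85) and Sall1 (-0.71, lost without replicate 1 of 1 day or replicate 2 or 3 of 3 days), and none rose. Of 10 endothelial markers, 7 were lower at 1 day than without injury (2 and 3 without replicate 1 or 2 of uninjured) and 6 rose from 1 to 3 days. Of 8 border macrophage markers, whose sum was 561 to 802 CPM at 1 day and 407 to 510 CPM at 3 days, 1 fell between the times (F13a1), or 2 without either uninjured library or replicate 2 of 1 day. Over all tested genes 1.77% were called at 1 day against uninjured and 11.0% between the times. Monocyte and neutrophil markers summed to 51.2 to 156 CPM at 1 day, with the top in replicate 2, and to 24.2 to 32.8 CPM at 3 days. Astrocyte markers summed to 88.5 to 138 CPM at 1 day and 63.4 to 76.5 CPM at 3 days, oligodendrocyte and precursor markers to 65.2 to 112 CPM and 75.4 to 112 CPM, and neuron markers, of which 1 to 5 of 7 were at 0, to at most 18.1 CPM. The part of these cells and of the mitochondrial share in the levels of Mertk and Itgav was not tested, beyond the fits without mitochondrially encoded genes and without single libraries.

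**Figure D4:**
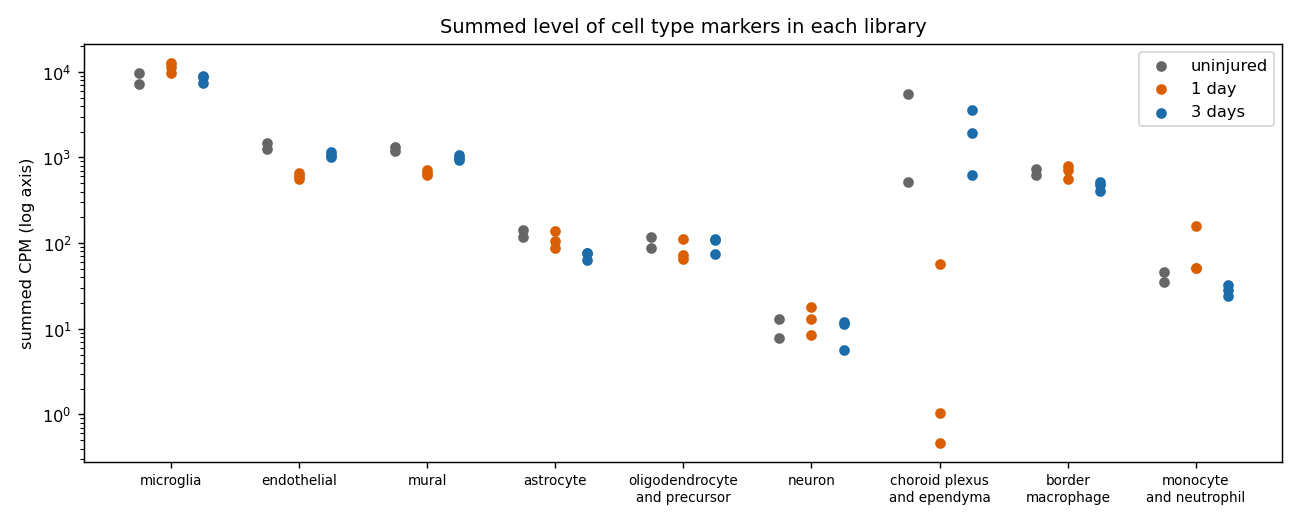
Summed CPM of 9 cell type marker lists (log y axis) in each library of the uninjured (n = 2), 1 day (n = 3) and 3 days (n = 3) groups; each point is a library. Microglia markers lead in all 8 libraries, endothelial and mural markers are lowest at 1 day, and choroid plexus and ependyma markers range from 0.467 to 5474 CPM.

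Among 9354 tested genes whose mean reached 5 CPM, the profiles most like that of Mertk over the 8 libraries belonged to Plxna4, Pfkfb3 and Amdhd2. Members, genes without a symbol and names typical of predicted genes, clones, mitochondrially encoded genes or small RNAs were left out beforehand. So were all names that begin with Rn. Likeness is the root mean square difference of centred log2 CPM, and it was 0.0719, 0.0833 and 0.0925. Plxna4, a semaphorin coreceptor, had means of 206 CPM without injury, 278 CPM at 1 day and 148 CPM at 3 days, and Pfkfb3, a glycolytic regulator, had means of 597, 863 and 457 CPM. For Itgav the closest were the costimulatory ligand Cd80 (0.101), the centriole gene C2cd3 (0.103) and the second costimulatory ligand Cd86 (0.103), and Cd86 had means of 344, 501 and 312 CPM. Among the members themselves, Axl and Pros1 were closest (0.173), followed by Axl and Gas6 (0.226) and Gas6 and Pros1 (0.228). Mertk was nearer to Itgav (0.242) than to Axl (0.553), Gas6 (0.505) or Pros1 (0.544). All profiles share the same 8 libraries and their scaling, so this is a description.

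Of 17 other receptors for apoptotic cells, 15 were tested, and Havcr1 and Adgrb1 were too low. At 1 day against uninjured 1 rose, at 3 days 2 rose and 1 fell, and between the times 1 fell, with median log2 fold changes of 0.12, -0.05 and 0.10. Over all tested genes 1.77%, 3.47% and 11.0% were called in these comparisons. Those are the shares to set beside the numbers of called genes in this list and those below. Cd14, a lipopolysaccharide coreceptor that also tethers apoptotic cells, had means of 225 ± 26.3 CPM (n = 2), 466 ± 148 CPM (n = 3) and 697 ± 83.7 CPM (n = 3, SD for each). It rose by 1.05 on the log2 scale at 1 day (adjusted p = 0.0257, lost without either uninjured library or replicate 3 of 3 days) and by 1.63 at 3 days (adjusted p = 0.000954, kept with any 1 library left out). Between 1 and 3 days Cd14 did not pass (log2 fold change 0.58, adjusted p = 0.0637).

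Cd300a, an inhibitory receptor for phosphatidylserine, was at 236 ± 24.97 CPM (SD, n = 2) without injury and fell to 118 ± 29.4 CPM (SD, n = 3) at 3 days (log2 fold change -0.9995, adjusted p = 0.0109, lost without replicate 1 of uninjured). It also fell between 1 and 3 days (-0.70, adjusted p = 0.0220, lost without replicate 3 of 1 day or replicate 2 or 3 of 3 days). Lrp1, an endocytic receptor for calreticulin-coated cells, passed at 3 days with a log2 fold change of 0.59 (adjusted p = 0.0475), in only 2 of the 8 fits that leave out 1 library, those without replicate 2 of uninjured and without replicate 2 of 1 day. Trem2, a lipid receptor of microglia, was 0.65 higher at 3 days than without injury and did not pass (adjusted p = 0.136), except without replicate 2 of uninjured.

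All 11 listed bridging proteins and opsonins other than Gas6, Pros1 and Mfge8 were tested. With edgeR 0 were called against uninjured mice at either time (5 and 7 at an unadjusted p under 0.05), and 3 rose from 1 to 3 days. Between the times 6 of the 11 estimates were above 0 and 5 below, with a median log2 fold change of 1.04 beside 0.02 for all tested genes. Lgals3, which encodes galectin-3, a further ligand of MERTK, rose from 31.43 ± 12.996 CPM to 88.83 ± 18.72 CPM (SD, n = 3 each, log2 fold change 1.4995, adjusted p = 0.00331). Anxa5, which encodes the phosphatidylserine-binding annexin A5, rose from 52.7 ± 4.91 CPM to 112 ± 24.5 CPM (SD, n = 3 each, 1.08, adjusted p = 0.00393). Both passed with any 1 library left out. Vtn, encoding the αv integrin ligand vitronectin, rose by 1.18 (adjusted p = 0.00872, lost without replicate 3 of 3 days), and it is also one of the 8 mural cell markers, whose sum was 626 to 712 CPM at 1 day and 945 to 1072 CPM at 3 days. The complement genes C1qa, C1qb and C1qc passed in none of the comparisons with all 8 libraries, and C1qb and C1qc passed at both times against uninjured without replicate 2 of uninjured.

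**Figure D5:**
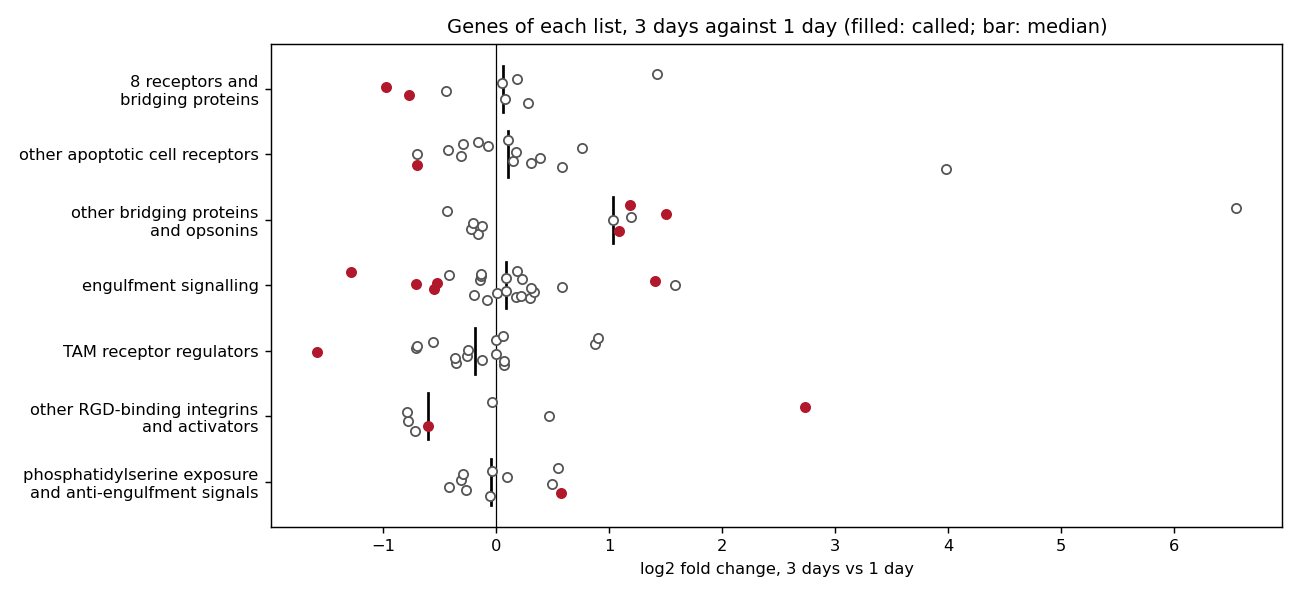
log2 fold change at 3 days against 1 day (x axis) for the tested genes of the 8 members and 6 related lists; each point is a gene, filled where its adjusted p is under 0.05, and bars are list medians. The members hold 2 filled points, both below 0, and the bridging proteins and opsonins hold 3, all above 0.

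Engulfment signalling, the path from receptor to actin, was represented by 23 tested genes. At 1 day edgeR called 0 (8 at an unadjusted p under 0.05), at 3 days 1 was higher, and between the times 1 rose and 4 fell, with medians of 0.19, 0.12 and 0.09. Vav2, a guanine nucleotide exchange factor, fell from 112 ± 15.1 CPM to 45.7 ± 9.86 CPM (SD, n = 3 each, -1.29, adjusted p = 0.00108). Pik3r1, the regulatory subunit of PI3-kinase, fell from 610 ± 45.3 CPM to 373 ± 1.90 CPM (SD, n = 3 each, -0.71, adjusted p = 0.00234). Both passed with any 1 library left out. Elmo1, the partner of DOCK exchange factors, fell by 0.55 (adjusted p = 0.0107, lost without replicate 3 of 3 days), and Ptk2, which encodes the focal adhesion kinase, rose by 1.40 (adjusted p = 0.0106, lost without replicate 2 of 3 days). Plcg2, with a log2 fold change of -0.52 (adjusted p = 0.0462), passed in 2 of the 8 fits that leave out 1 library, those without replicate 2 of 1 day or of 3 days. Rac1 at 3 days against uninjured (0.59, adjusted p = 0.0489) passed in 1 of the 8, that without replicate 2 of 1 day.

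The list of TAM receptor regulators held 16 genes, among them the sheddases Adam10 and Adam17 that cut MERTK from the surface, the vitamin K enzymes that activate GAS6 and protein S, and nuclear receptors that drive Mertk in macrophages. At 1 day 1 rose, at 3 days edgeR called 0 (also 0 at an unadjusted p under 0.05), and between the times 1 fell, with medians of 0.21, 0.07 and -0.19. The gene was Ppard, a lipid-activated nuclear receptor, in both cases. Its means were 56.1 ± 2.71 CPM without injury (n = 2), 125 ± 8.56 CPM at 1 day (n = 3) and 41.7 ± 8.28 CPM at 3 days (n = 3, SD for each). It rose by 1.16 at 1 day (adjusted p = 0.0145, lost without either uninjured library) and fell by 1.58 between the times (adjusted p = 0.000169, kept with any 1 library left out). Adam17 was 0.36 lower at 3 days than at 1 day and did not pass (adjusted p = 0.237).

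Of 9 other RGD-binding integrins and their activators, 7 were tested, with medians of 0.46, -0.01 and -0.60. Itga5, the fibronectin receptor subunit, had means of 235 ± 38.2 CPM without injury (n = 2), 620 ± 25.4 CPM at 1 day (n = 3) and 409 ± 8.01 CPM at 3 days (n = 3, SD for each). It rose by 1.40 at 1 day (adjusted p = 0.00113, kept with any 1 library left out) and by 0.80 at 3 days (adjusted p = 0.00848, lost without replicate 1 of uninjured or replicate 3 of 3 days). It fell by 0.60 between the times (adjusted p = 0.00946, lost without replicate 3 of 3 days). Itgav itself had log2 fold changes of 0.61, -0.16 and -0.77 in the same comparisons, and the difference between the 2 genes was not tested. Itgb8, an αv partner, had means of 11.8 CPM without injury, 0.971 CPM at 1 day and 6.43 CPM at 3 days and passed at 1 day (adjusted p = 0.0475) and between the times (adjusted p = 0.0418), each in 2 of the 8 fits that leave out 1 library, those without replicate 2 of uninjured or replicate 1 of 1 day. Of 10 genes of phosphatidylserine exposure and of signals against engulfment, edgeR called 0 at 1 and 3 days against uninjured (3 and 2 at an unadjusted p under 0.05), and between the times 1 rose, the lipid flippase Atp11a (0.58, adjusted p = 0.0328), in 3 of the 8 such fits, those without either uninjured library or replicate 2 of 1 day. Cd47, a signal against engulfment, and its receptor gene Sirpa passed in none of the comparisons. Cd24a of the same list did not pass at 1 day against uninjured (adjusted p = 0.0660), except without replicate 2 of 1 day (adjusted p = 0.0430).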

How the data were processed

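RNA of 8 libraries of bead-purified LGN microglia was linearly amplified and sequenced, per the labels' protocols. The deposited values are whole read counts per Ensembl gene ID, 1 column per library; FastQC, STAR, HTSeq and the build mm9 are named in the submitters' processing notes, and for versions, annotation and strand setting the sources used here give nothing. Symbols, exonic lengths and overlaps came from GENCODE M21 (25925 of 26062 IDs matched; the rest took 0.127% of the counts).

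edgeR 4.0.16 (R 4.3.3) was run on the counts. Its filterByExpr left 17390 genes, libraries were scaled by TMM, and 1 robust quasi-likelihood model with 3 group means covered the 8 libraries (biological coefficient of variation 51.1%). Called genes have an adjusted p (Benjamini-Hochberg, across the 17390) below 0.05. Levels are in CPM after TMM; limits from 0 counts cover counting error only. Ratios were compared by exact permutation over libraries. No 2 libraries of a group agreed within sampling noise (chi-square per degree of freedom 34.1 to 70.7). Likeness used log2(CPM + 0.5). The procedure was tested on simulated data.

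The members, gene lists, marker lists and tests were chosen with earlier results of these data known. Named genes are the 8 members, the 3 genes most like each called member, and the called genes of each pathway list. The uncalled genes named from those lists, such as Adam10, Adam17 and Cd47, and the marker genes were not picked by p. Some unnamed genes had a smaller p, such as Rxra (adjusted p = 0.0928) and Atp8a1 (adjusted p = 0.0702) between the times with edgeR. The alternatives were DESeq2 1.42.0, limma-voom (limma 3.58.1), other scalings and filters, a fit to only the 2 groups compared, a block for replicate number, counts thinned to the same library total, counts without mitochondrially encoded genes, and each library left out in turn. One marker gene is not reported by name here.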

Additional observations from a re-analysis of the deposited data

Results flagged for a closer look

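Mertk and Itgav differed between 1 and 3 days after crush by a test of that difference itself. For Mertk the log2 fold change against uninjured mice was 0.45 at 1 day and -0.52 at 3 days, and the difference between the times was -0.97 (edgeR's quasi-likelihood test, adjusted p = 0.000542), with all 3 libraries of 3 days below all 3 of 1 day. For Itgav the corresponding values were 0.61 and -0.16, and the difference was -0.77 (adjusted p = 0.00286), again with all 3 libraries of 3 days below all 3 of 1 day. Both times share the same 2 uninjured libraries, which cancel in the difference.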

How the results depend on the processing

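The falls of Mertk and Itgav between 1 and 3 days passed in all 18 alternatives. Over members, comparisons and alternatives, 405 of 429 values kept their direction and their side of the threshold, 17 changed sign and 7 passed where the reported fit did not. The number of members called at 1 day against uninjured was 1 in place of 0 in DESeq2 and in limma-voom (Itgav). At 3 days it was 1 in place of 0 in DESeq2, in limma-voom, without the low count filter and with a filter at 5 CPM, and 0 to 1 when 1 library was left out (1 without replicate 2 of 1 day), each time Mertk. The cause was not tested.

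Signs changed only for members near 0 that passed nowhere. Itgb5 at 3 days was 0.0031 in limma-voom, 0.0303 with the replicate block and -0.2308 to 0.2425 with 1 library left out. Library size scaling, which moved the median of all genes by -0.12 at 1 day and -0.15 at 3 days, gave -0.0452 for Gas6 at 1 day and -0.0722 for Pros1 at 3 days. The replicate block gave 0.0079 for Mfge8 at 3 days. With 1 library left out, log2 fold changes at 1 day ran from -0.0543 to 0.2247 for Gas6, from -0.1379 to 0.0473 for Axl and from -0.3014 to 0.0175 for Pros1. Pros1 at 3 days ran from -0.0013 to 0.1326, and between the times Gas6 ran from -0.0407 to 0.1577 and Mfge8 from -0.1355 to 0.3737.

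Replicate numbers gave no sign of pairing: deviations of same-numbered libraries correlated at -0.07 to 0.09, and those of differently numbered libraries at -0.09 to 0.06. With 2 or 3 libraries per group, these values cannot show that there was no pairing. With the replicate block 0, 0 and 2 members were called, and 301, 424 and 1700 of all genes in place of 308, 604 and 1912. DESeq2 called 881, 1375 and 3099 genes, and the fit of 2 groups called 110 at 1 day and 1345 at 3 days. Leaving out 1 library gave 39 to 368, 108 to 982 and 747 to 2362 genes. Tyro3 had no value under the filter at 5 CPM. Depth limits Tyro3 (0 to 30 counts per library) and Mfge8 (148 to 303), and with 2 uninjured libraries a comparison that leaves 1 of them out assumes that the other varies like the injured groups.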
